A study of Mus musculus with 16 samples.

Results

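The livers of 16 male mice were sorted by a single transcript, that of Gpnmb, and the livers in which it was abundant were set against those in which it was not measured above background. Gpnmb (glycoprotein NMB) is a membrane glycoprotein found in melanocytes and in macrophages rich in lysosomes, among them the macrophages that gather where lipid accumulates. A liver was called Gpnmb-high where the deposited intensity of the brightest Gpnmb probe was above 1000, which gave 8 animals, and Gpnmb-low where it was below 50, which gave 6, so that 14 of the 16 animals fell into a class. The series had been made to compare 7 Lactb transgenic mice with 9 FVB wildtype mice. Lactb is a protein of the mitochondrial intermembrane space that resembles bacterial beta-lactamases. Every animal was a male of 23 weeks that had eaten chow with 4% fat until 11 weeks of age and chow with 6% fat from then on, and the labels name no other allele or agent. The promoter of the transgene and the number of founder lines are not given in the sources used here, and no probe was named as Lactb, so the genotype labels were not checked against the transgene. The Gpnmb-high class held 5 transgenic animals (replicates 3 to 7) and 3 wildtype animals (replicates 4, 5 and 6). The Gpnmb-low class held 2 transgenic animals (replicates 1 and 2) and 4 wildtype animals (replicates 1, 2, 8 and 9).

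The values are the brightness of probes on Illumina bead arrays, each carrying 24048 probes. Of these, 8893 probes (37.0%) could be named, for 7413 genes. The deposited intensities are linear, had their background subtracted and can be negative, and they are the values given per animal below. For differences they were put on a log2 scale and quantile normalised, and a difference is the Gpnmb-high mean minus the Gpnmb-low mean on that scale, with the genotype as a covariate. A gene was read by its brightest named probe, and a probe of low signal does not show that its gene is silent. Across arrays the mean intensity lay between 331.4 and 333.5. The arrays of the high class had 10690 to 11564 probes above background and those of the low class 9907 to 10252, with no overlap, and the noise among dim probes had an SD of 10.38 to 17.14 against 13.74 to 19.45. The part of these differences between arrays in the results below was not tested.

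The animals were chosen by the measured Gpnmb intensity, so the contrast between the classes is given here as a description and supports nothing by itself. In the 8 high livers Gpnmb ran from 1348.5 to 4441.3 with a median of 2347.6. In the 6 low livers it ran from -24.6 to -0.9 with a median of -3.6, and it was above background on none of these arrays. The low class therefore carries only a bound for Gpnmb, and the high class stood at least 30.2-fold above it. Here and below, "at least" sets the mean of the bright class against the dimmest signal that counts as above background on each array of the dim class. The animals nearest to the thresholds were wildtype replicate 4 at 1348.5 and transgenic replicate 3 at 1382.7, inside the high class, and wildtype replicate 8 at -0.9, inside the low class. Outside both classes lay wildtype replicate 7 at 868.5 and wildtype replicate 3 at 567.6. A second probe named as Gpnmb was dim on every array, at 4.5 to 60.2 in the high class and -20.5 to 14.5 in the low class.

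The classes stood apart over much of the transcriptome. Of the 11101 probes that were above background on at least 6 of the 14 arrays, 2131 (19.2%) were higher and 2182 (19.7%) lower in Gpnmb-high livers at an adjusted p under 0.05 in a limma fit. Without quantile normalisation the split was 2798 higher and 1698 lower, which moved the share of higher calls from 49.4% to 62.2%. With probes detected on all 14 arrays it was 1509 higher and 1950 lower, or 43.6% higher. Most of these differences were small, since 3848 of the 4313 called probes (38.9% of those tested) were under 2-fold. The others were 312 probes higher (2.81%) and 153 lower (1.38%) by 2-fold or more, and 96 probes differed by over 4-fold. No animal of one class reached into the range of the other for 1109 probes higher (9.99%) and 823 lower (7.41%) in the high class. Read by gene, 797 of 3883 named genes (20.5%) were called higher and 705 (18.2%) lower, and the values of the 14 animals did not overlap between the classes for 415 genes higher (10.7%) and 255 lower (6.57%). The median difference over all 3883 genes was -0.022. These shares are the background for every gene list below, and since the same contrast chose the animals, nothing further is read from a list's count. Mmp12, Cd68, Col3a1, Col15a1, Prom1, Cyp2b13, Ccl2, Oas1a, S100a4 and S100a11 were above background on no low array and Susd4 on no high array, so these members passed the filter through a single class and had to differ. Others came near to this. S100a9, Retnlg, Ctse and Il1a were above background on 1 low array, Cdkn1a and Col1a1 on 2, and Gdf15, Cyp2b9 and Bcl2a1d on 3. Lrtm1 was above background on 1 high array, Dct on 2 and Slc1a2 and Cel on 3. Ctsl was above background on 3 high and 3 low arrays. Their differences lean on values near background.

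Macrophage transcripts were more abundant in the Gpnmb-high livers. Macrophages of lipid-laden tissue carry abundant lysosomal and matrix-degrading proteins. All 9 tested markers of the 30 on the macrophage list were higher in Gpnmb-high livers, with a median difference of 1.76 (1.5 with Mmp12 and Cd68 at their bounds), and for 8 of them the classes did not overlap. Mmp12, the macrophage elastase, had 410.2 to 770.2 in the high livers (median 498.5) and -11.3 to 9.5 in the low livers (median 3.4). It was above background on all 8 high arrays and on no low array, so that it was at least 7.11-fold higher. Lyz2, the lysozyme of myeloid cells, was at 2382.9 to 4565.6 (median 3058.4) against 200.8 to 385.9 (median 297.0). The log2 level of Lyz2 was 11.68 ± 0.34 (SD, n = 8) against 8.53 ± 0.27 (SD, n = 6), so that the fitted difference was 3.14 (SE 0.16). The lowest high liver was thus several times brighter than the highest low liver for both genes.

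Cd63, a tetraspanin of late endosomes and lysosomes, had 1749.8 to 2511.9 (median 1937.8) in the high class and 102.7 to 169.3 (median 158.6) in the low class, a log2 difference of 3.24 (SE 0.12). Cd68, a lysosomal glycoprotein of macrophages, was at 132.4 to 274.9 against -8.1 to 20.4 and at least 2.83-fold higher. Of the remaining 5 tested markers, Spp1 differed by 1.76 (SE 0.27) and Ctsb by 0.35, and the classes did not overlap for either. The complement components C1qa and C1qb, made by resident macrophages, differed by 1.01 and 0.92, and Csf1r, the receptor for macrophage colony-stimulating factor, by 0.47. The summed intensity of the 9 tested macrophage markers was 14130.1 to 18624.7 in the high class, 6355.4 to 7597.3 in the low class, and 9569.7 and 12188.2 in the animals between. Ctsb was the brightest of the 9, at a mean log2 level of 12.73 in the high and 12.39 in the low class. The sum therefore leans on a gene that differed little. In a whole-liver extract, more cells of a type and more RNA per cell cannot be told apart, and this holds for every group below. Among the 15 named genes with the largest separated increases were also Bcl2a1b and Bcl2a1d, survival factors of the BCL2 family, whose copies are nearly identical and may share signal. Bcl2a1b stood at 997.6 to 1216.9 against 59.9 to 131.6 and Bcl2a1d at 541.4 to 649.7 against 13.6 to 47.3, and neither varied much among the high livers.

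**Figure D1:**
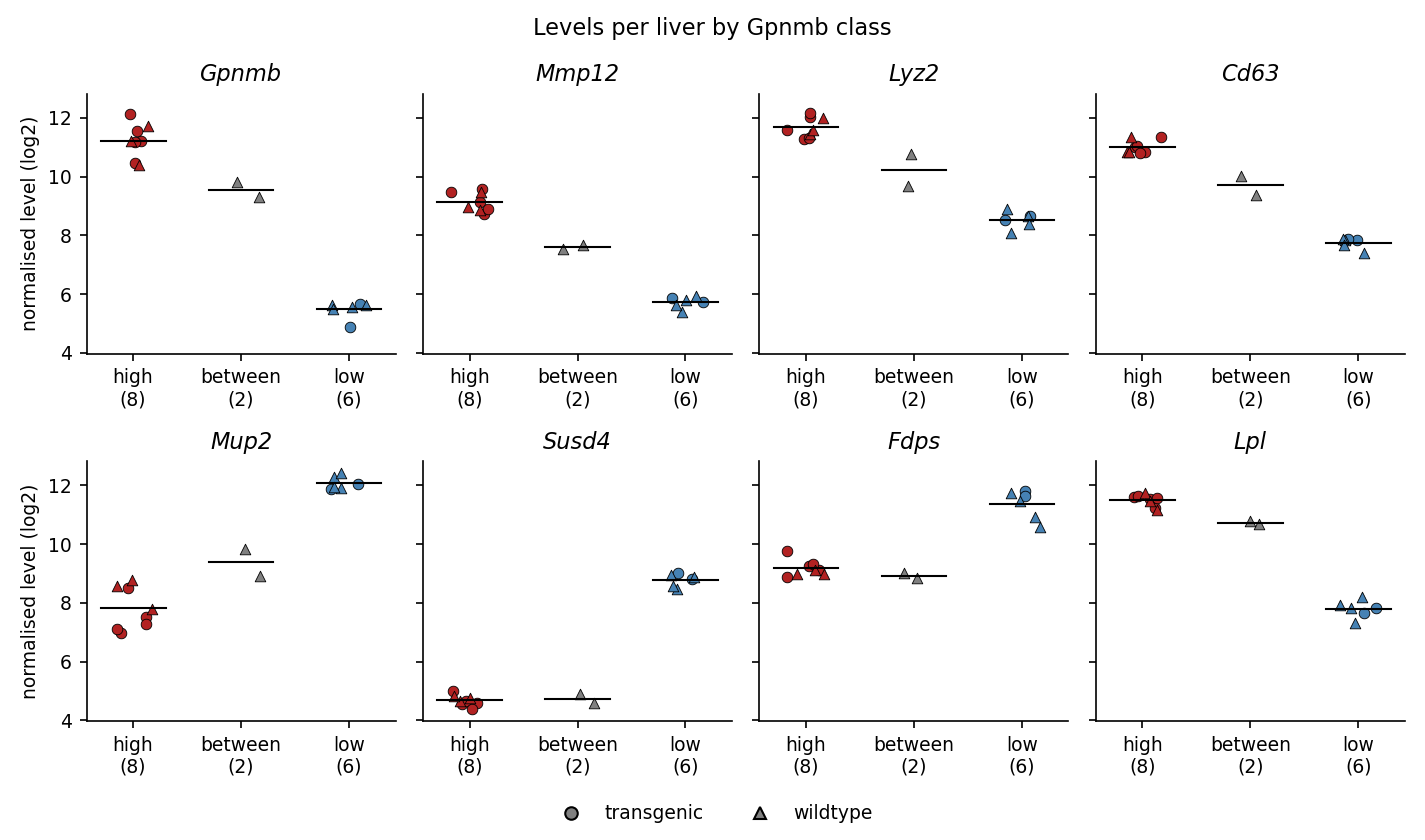
Normalised log2 levels of Gpnmb, Mmp12, Lyz2, Cd63, Mup2, Susd4, Fdps and Lpl in each of the 16 livers, by Gpnmb class on the horizontal axis. Circles are transgenic and triangles wildtype animals, and the bar is the class mean. The classes do not overlap for any of the 8 genes, and the 2 animals between are near the high class for Susd4 and Fdps but between the classes for Gpnmb, Mmp12, Lyz2 and Cd63.

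Markers of other cell types moved less evenly. Of 3 tested neutrophil markers, 2 were called higher, and 1 without quantile normalisation or within transgenic livers, where Retnlg (0.33 and 0.37) lost its call. With probes detected on all 14 arrays none was tested. S100a9, a calcium-binding protein abundant in neutrophils, was at 192.0 to 286.6 against 7.2 to 49.4. It was above background on 8 high arrays and 1 low array, so its difference of 1.86 (SE 0.12) leans on low values near background. Retnlg, above background on the same numbers of arrays, differed by 0.46 and Cxcr2 by 0.03. Mpo and Ltf were above background on no array. The sum of the 3 tested was 264.8 to 399.7 in the high and 41.8 to 110.8 in the low class. Among 5 tested markers of the sinusoidal endothelium the median difference was 0.15. Only Clec4g was called, at 0.24, and that call was lost when transgenic replicate 6 or wildtype replicate 2, 4, 5, 6 or 8 was left out. Without quantile normalisation 3 of the 5 were called higher, with a median of 0.31, and within transgenic livers 0. Cd3e, the single tested marker of T cells, differed by 0.31 and was not called, but it was called without transgenic replicate 1 (0.44). Ighm, the heavy chain of IgM, was lower at 84.7 to 127.8 against 147.0 to 271.1, a difference of -0.90 (SE 0.12), whereas Igkc differed by -0.12.

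Matrix genes stood higher in the Gpnmb-high livers. Of 12 tested genes of the extracellular matrix list, 9 were called higher and none lower, with a median difference of 0.74 (0.5 with Mmp12, Col3a1 and Col15a1 at their bounds), and the classes did not overlap for 7. With probes detected on all 14 arrays, 4 of 5 were called. Col1a1, a chain of type I collagen, was at 79.6 to 258.7 (median 102.8) against -9.1 to 35.4 (median 1.6), a difference of 1.53 (SE 0.21). It was above background on only 2 low arrays. Col3a1, of type III collagen, was above background on 7 high arrays and on no low array and was at least 1.19-fold higher. Loxl1, which cross-links elastin, had 84.2 to 306.5 against 20.4 to 48.8. Col15a1, like Col3a1 above background on 7 high arrays and no low array, was at least 1.06-fold higher. Col6a1 and Col5a1 differed by 0.92 and 0.85, while Timp3 at 0.06 and Loxl2 at 0.16 were not called. Of the 6 tested stellate cell markers, Col1a1, Col3a1, Dcn and Colec11 were called higher. Lrat, which stores retinol as ester in quiescent stellate cells, differed by -0.30, a call that was lost on leaving out any of 8 animals (transgenic replicates 2, 3, 5 and 6, wildtype replicates 1, 2, 5 and 8). The 5 tested collagen genes of the matrix list were called higher, for Col3a1 and Col15a1 with only a bound in the low class, while Lrat differed little.

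Some genes of the bile duct and progenitor list, and most tested genes of the cytoskeleton, were higher too. Of 5 tested genes of the bile duct list, 4 were called higher and Cldn4 at 0.12 was not. Krt19, a defining keratin of bile ducts, and Cd24a were above background on no array. Prom1, a membrane protein of progenitor cells that is also more abundant in female mouse liver, was at 244.8 to 931.9 (median 625.6) against -11.6 to 20.7 (median 5.8) and at least 7.11-fold higher. Anxa5, a phospholipid-binding annexin that is also on the cytoskeleton list, stood at 3632.2 to 5463.2 against 397.8 to 501.2. Its log2 difference was 3.01 (SE 0.097). Krt8 and Krt18, the keratins that hepatocytes and duct cells share, differed by 1.5 (SE 0.21) and 1.12 (SE 0.22). Krt8 ran from 3520.2 to 9982.1 in the high and from 1622.3 to 2386.5 in the low class. The sum of the tested genes of this list, most of it from Krt8, Krt18 and Anxa5, was 9766.9 to 22732.8 against 3174.9 to 4550.1. Of 14 tested cytoskeletal genes, 11 were called higher with a median of 0.80 (0.53 with S100a4 and S100a11 at their bounds), among them Cotl1 and the dim S100a11 and S100a4, which were at least 1.39-fold and 1.12-fold higher, while Pfn1 (0.14), Arpc5 (-0.05) and Anxa1 (0.01) were not called.

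Inflammatory signals were higher for most tested members. Of 9 chemokines, cytokines and receptors, 7 were called higher with a median of 0.67 (0.53 with Ccl2 at its bound), and the classes did not overlap for 5. With probes detected on all 14 arrays, 4 of 5 were called. Il1a, called at 0.36, was dim and above background on 5 high arrays and 1 low array. Gdf15, a stress-induced cytokine, was at 260.5 to 508.2 (median 381.2) against 14.2 to 131.9 (median 49.6), a difference of 2.03 (SE 0.21). Cxcl1, which attracts neutrophils, was at 1070.2 to 3238.7 against 404.0 to 848.2. Ccl2, which attracts monocytes, was dim at 34.4 to 146.3 in the high class and above background on no low array, so that it was at least 1.45-fold higher. Il18 (-0.14) and Tnfrsf1b (-0.19) were not called. Of 9 tested acute phase genes, 6 were called higher and Il6ra lower, and without quantile normalisation 3 were called higher. Saa1, a serum amyloid A protein, was at 3052.6 to 6474.9 against 586.0 to 2613.5, with a difference of 2.18 (SE 0.28). Its near copy Saa2 may share its signal, and there the classes overlapped, at 292.7 to 774.9 against 32.5 to 592.6. The call of Il6ra was lost without transgenic replicate 2.

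Several glutathione enzymes were higher in the Gpnmb-high livers. Glutathione S-transferases couple glutathione to reactive compounds, and many are targets of the transcription factor NRF2. Of 14 tested genes of that list, 10 were called higher and Mt1 lower, with a median of 0.53. Gsta2 was at 5062.2 to 10901.3 (median 8839.8) against 740.5 to 1382.5 (median 957.2), a difference of 2.84 (SE 0.13), and Gsta1 at 1659.8 to 3584.6 against 225.9 to 462.8. Gstm3 was at 596.4 to 2522.7 against 39.5 to 151.3, with a difference of 2.92 (SE 0.22). These families have nearly identical members, so the signal of a probe may be shared. Srxn1, which repairs oxidised peroxiredoxins, was at 589.3 to 2648.3 against 258.9 to 384.3, a difference of 1.40 (SE 0.25). Mt1, a metallothionein, differed by -1.26, and Prdx1 (0.06), Taldo1 (-0.11) and Gstp1 (0.21) were not called. Cdkn1a, the p53 target that encodes the cell cycle inhibitor p21, was at 329.1 to 896.0 (median 615.2) against -1.1 to 101.2 (median 14.6). It was above background on only 2 low arrays and differed by 2.98 (SE 0.27). The other tested p53 targets Ccng1 and Zmat3 differed by 0.58 and 0.56.

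Every tested gene of cholesterol synthesis was lower in the Gpnmb-high livers. The mevalonate pathway makes cholesterol, and its enzymes are transcribed under SREBP2, which is active when the cell is short of sterol. All 11 tested genes were called lower, with a median of -1.52, and the classes did not overlap for 8. Fdps, which makes farnesyl diphosphate, was at 461.1 to 884.5 (median 524.9) in the high class and 1403.1 to 3614.9 (median 3040.2) in the low class. On the log2 scale Fdps averaged 9.18 ± 0.28 (SD, n = 8) in the high livers and 11.36 ± 0.50 (SD, n = 6) in the low livers, with a fitted difference of -2.29 (SE 0.17). The low livers spread more widely than the high livers. The sterol enzymes Nsdhl and Cyp51 differed by -2.19 (SE 0.17) and -2.15 (SE 0.12), and Stard4, a carrier of cholesterol between membranes, by -2.18 (SE 0.14). Insig1, which holds SREBP in the endoplasmic reticulum, was at 37.0 to 152.6 against 243.1 to 421.9. Hmgcs1, the synthase early in the pathway, differed by -0.67, and Srebf2, which encodes SREBP2 itself, by -0.28.

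The sterol regulatory element was looked for as TCACNCCAC on either strand in the 250 bases before the start of each gene, a motif that overlaps with no other searched here. Of the 7 tested cholesterol genes with a promoter in the RefSeq table (GRCm38.p6), 1 held it, against 1.22% of 27025 genes. That gene was Hmgcs1, whose window at chr13:119690101-119690350 on the plus strand is shown with the match in capitals, 137 bases before the start, since it is the single match among the genes that were lower together.
Hmgcs1: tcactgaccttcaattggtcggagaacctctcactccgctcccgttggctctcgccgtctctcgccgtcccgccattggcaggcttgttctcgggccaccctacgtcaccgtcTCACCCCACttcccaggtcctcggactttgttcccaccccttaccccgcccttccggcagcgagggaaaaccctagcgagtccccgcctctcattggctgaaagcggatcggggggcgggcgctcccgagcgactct
The match is a description of these letters and not of binding.

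Other lipid genes went both ways. Lpl, the lipoprotein lipase that frees fatty acids from circulating triglyceride, had the largest positive difference of a named gene apart from Gpnmb, which was not tested. It stood at 2171.0 to 3346.0 (median 2895.1) against 99.2 to 217.7 (median 153.8), a log2 difference of 3.71 (SE 0.13). Vldlr, the receptor for very low density lipoprotein, was at 445.1 to 763.3 against 63.0 to 269.9, and Plin4, a lipid droplet coat protein, at 103.7 to 260.1 against 17.4 to 87.6, where the animals overlapped after normalisation. Fitm2, which helps lipid droplets form, was lower, with a difference of -0.59 (SE 0.11), and Pnpla2, a triglyceride lipase, differed by 0.07. Abcg1, which exports cholesterol, was at 961.5 to 1274.6 against 117.3 to 198.2, a difference of 2.24 (SE 0.10). Scd2, a desaturase of fatty acids, was at 852.4 to 1016.6 against 97.0 to 164.1, a difference of 2.17 (SE 0.08). Of the 8 tested genes of fatty acid and triglyceride synthesis, Scd2 and Acaca were called higher and Acss2, Fads2, Elovl6 and Gpam lower, while Fasn (-0.15) and Acly (-0.27) were not called. The lower calls fell from 4 to 2 without wildtype replicate 4, and Elovl6 also lost its call without transgenic replicate 2. Of 10 tested apolipoprotein genes and receptors, 3 were called higher and 4 lower, with Apoc2 at 0.65, Scarb1 at 0.54, Apoe at -0.01 and Apoc3 at -0.31.

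Genes that differ between the sexes in mouse liver, a difference set by the pulses of growth hormone, were apart between the classes although every animal was male. Of 10 tested male-biased genes, 8 were called lower and none higher, with a median of -0.82. Mup2, a major urinary protein that carries pheromones, was at 84.2 to 445.2 (median 160.6) against 3790.3 to 5583.3 (median 4090.3). Its log2 level was 7.82 ± 0.71 (SD, n = 8) against 12.08 ± 0.22 (SD, n = 6), with a fitted difference of -4.08 (SE 0.23). Mup4 was at 18.3 to 115.4 against 1317.0 to 2858.3, a difference of -4.18 (SE 0.16). The Mup genes are nearly identical and probes may share signal. The probes read for Mup1 and Mup3 differed by -0.74 and -0.51. They were brighter than those of Mup2 and Mup4, at mean log2 levels of 14.61 against 15.46 for Mup1 and 13.3 against 13.83 for Mup3. Whether their brightness limits the difference they can show was not tested. Susd4, a sushi-domain regulator of complement, was at -31.2 to -14.8 (median -22.0) against 278.1 to 419.3 (median 379.2), above background on none of the high arrays, and so at least 6.13-fold lower in the high class. C6, a component of the membrane attack complex, differed by -1.22, and the oxidases Cyp4a12a (-0.19) and Cyp4a12b (-0.37) were not called.

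Of 7 tested female-biased genes, 4 were called higher and none lower, Cyp2b13 and Prom1 having passed the filter through the high class alone. With probes detected on all 14 arrays, 3 were left to test and 0 were called. Cyp2b13, a cytochrome P450 with a close copy in Cyp2b9, was at 277.6 to 1236.9 (median 698.4) against -5.7 to 30.5 (median 4.8) and at least 7.83-fold higher. Cyp2b9 itself overlapped, at 357.9 to 1360.9 against -21.6 to 379.4. Cyp3a41a differed by 0.86, and Acot3 (-0.75), Abcd2 (0.08) and Cyp4a10 (0.13) were not called. In growth hormone signalling 3 of 7 tested genes were called lower. Igf1, the main effector made by hepatocytes, was at 3299.0 to 4074.0 against 6173.7 to 7050.3, a difference of -0.75 (SE 0.066), and Igfals, its partner in plasma, at 1221.8 to 2216.7 against 2724.1 to 3778.7. The third was Prlr (-0.91), and Socs2 (-0.07), Cish (0.43) and Jak2 (0.08) were not called. The median of that list, -0.07, became 0.09 without quantile normalisation, where 2 members were called higher and 2 lower.

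Further genes of hepatocytes were lower to differing extents. Of 5 tested secreted proteins, Serpina1a, an antitrypsin of a family with nearly identical copies, was at 2254.1 to 3358.1 against 6735.2 to 9563.2, a difference of -1.32 (SE 0.11). Apoc3 and Apoa1 differed by -0.31 and -0.20, the latter losing its call without transgenic replicate 1 or wildtype replicate 6, and Trf (-0.06) and Apoa2 (0.07) were not called. The sum of these 5 transcripts was 87477.9 to 123232.9 in the high and 126424.6 to 150241.8 in the low class. Of 15 tested P450 and UGT genes, 5 were called higher and 6 lower. Cyp2c37 was at 1786.3 to 4089.3 against 6848.6 to 10483.9 and Cyp4f14 at 2433.0 to 3649.7 against 5384.7 to 6977.7, while Fmo5, a flavin mono-oxygenase, was higher at 387.3 to 596.5 against 127.1 to 296.1. The Cyp2c genes are close copies, and the same limit holds for Cyp2c50, with a difference of -2.20 (SE 0.23), and for Hsd3b2, of the hydroxysteroid dehydrogenase family, with -2.57 (SE 0.18). Slc10a1, which takes up bile acids, was lower at 4.0 to 56.1 against 89.3 to 199.9. Slc22a30, an organic anion transporter, was at 203.0 to 507.9 against 1004.8 to 1602.3. Of 8 tested complement and coagulation genes, 6 were called lower and Kng1 (0.17) higher, a call lost on leaving out any of 8 animals (transgenic replicates 1 and 4, wildtype replicates 1, 2, 5, 6, 8 and 9).

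Other genes among the 15 largest separated differences each way belong to none of these groups. Uap1l1, an enzyme resembling that which makes UDP-N-acetylglucosamine, was at 534.4 to 820.0 against 20.0 to 51.9, and Ifi27l2a, an interferon-induced gene, at 316.1 to 822.1 against 37.0 to 59.4. Lower in the high class were Lrtm1, a membrane protein with leucine-rich repeats, at -13.8 to 24.5 against 66.0 to 388.9, and Ttc39c at 308.2 to 482.8 against 1021.1 to 2221.3. Slc1a2, a glutamate transporter, was at -6.6 to 48.2 against 123.1 to 200.1. Dct, the dopachrome tautomerase of melanin synthesis, was at 0.9 to 24.7 against 102.3 to 410.7, above background on 2 of the 8 high arrays and on all 6 low arrays. No value of one class reached the other for these 6 genes.

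**Figure D2:**
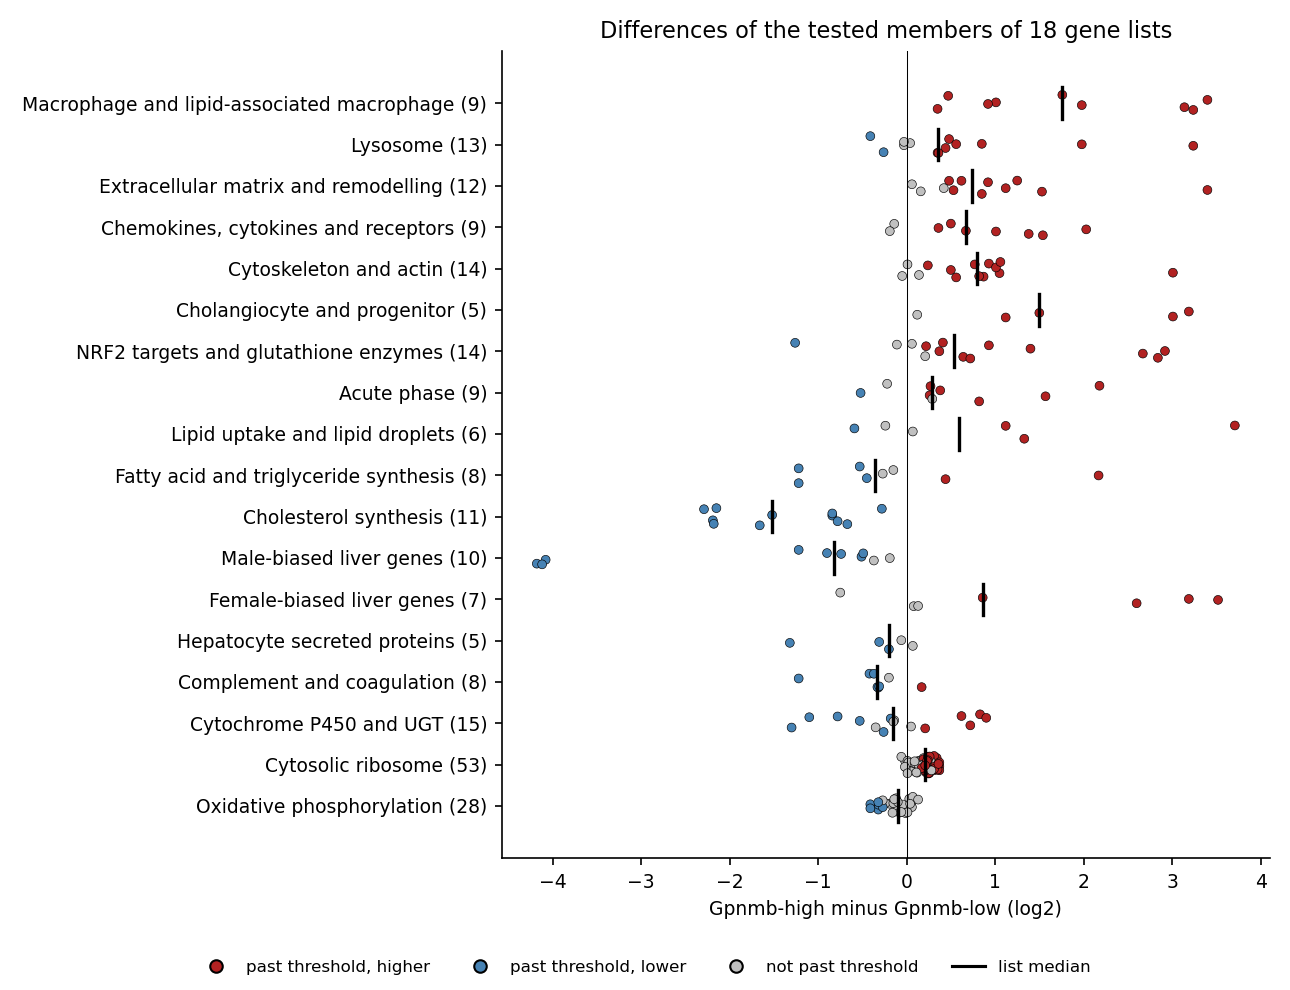
Log2 difference between Gpnmb-high and Gpnmb-low livers for each tested member of 18 gene lists, with the number of tested members in brackets. Red and blue points passed an adjusted p of 0.05 in the limma fit, grey points did not, and the black bar is the list median. Members above background in a single class are drawn at their fitted difference, which is no bound. Macrophage genes lie above 0 and cholesterol synthesis genes below 0 throughout, while the ribosomal and respiratory genes lie close to 0.

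Lysosomal genes did not all follow the macrophage markers. Of 13 tested genes, 8 were called higher and 2 lower, with a median of 0.36. Among the higher calls, Cd63, Cd68 and Ctsb were also counted on the macrophage list. Ctse, also called higher, was dim and above background on 6 high arrays and 1 low array. The lower calls became 1 without transgenic replicate 2, wildtype replicate 4 or wildtype replicate 6, or without quantile normalisation. Within wildtype livers 4 were called higher and 0 lower. Cd63 and Cd68 stood highest. Man2b1, a lysosomal mannosidase, was at 2243.3 to 3691.7 against 1467.4 to 1783.0 and Ctsz, a cathepsin, at 2723.2 to 3488.3 against 1817.3 to 2317.8. Lamp2, a membrane protein of lysosomes, differed by only -0.03. The cathepsin Ctsl was called lower at -0.26, but its probe was dim (mean log2 level 6.03 against 6.28). It was above background on only 3 high and 3 low arrays. The CLEAR element bound by TFEB and related factors was searched for as TCACGTGA on both strands. It was present before 2 of 11 tested lysosomal genes with a promoter in the RefSeq table, against 0.907% of 27025 genes. Those genes differed in opposite directions, and their windows are printed for that reason, each 250 bases long with the match in capitals. Mcoln1, a calcium channel of lysosomes, lies on the plus strand at chr8:3500269-3500518 (GRCm38.p6) with the match 46 bases before its start, and it differed by -0.41 (SE 0.096). Atp6v1a, a subunit of the proton pump, lies on the minus strand at chr16:44139260-44139509 with the match 132 bases before its start, and it differed by 0.36 (SE 0.077).
Mcoln1: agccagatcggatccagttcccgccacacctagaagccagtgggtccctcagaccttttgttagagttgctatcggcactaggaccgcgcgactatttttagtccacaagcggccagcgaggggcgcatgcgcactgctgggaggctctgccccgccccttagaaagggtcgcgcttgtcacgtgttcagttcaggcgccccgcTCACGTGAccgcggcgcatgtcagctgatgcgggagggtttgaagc
Atp6v1a: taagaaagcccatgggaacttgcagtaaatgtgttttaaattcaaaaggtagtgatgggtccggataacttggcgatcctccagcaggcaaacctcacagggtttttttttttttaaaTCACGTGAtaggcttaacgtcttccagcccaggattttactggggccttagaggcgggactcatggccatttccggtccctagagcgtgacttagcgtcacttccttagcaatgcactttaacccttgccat
The same 8 letters thus preceded a gene that was lower and a gene that was higher in the Gpnmb-high class.

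The genotype was not used to sort the animals, and it could be tested. Of the 8 high animals 5 were transgenic and of the 6 low animals 2 were, an odds ratio of 3.33 (two-sided Fisher's exact test, p = 0.592, n = 14). With the 2 animals between counted as high or as low the exact p was 0.633 or 0.315. Where nothing says how the animals were bred or caged, a p-value here measures only the spread between these samples. The class difference was then compared between genotypes with an interaction term in limma. Of 11101 probes, 0 (0%) passed an adjusted p of 0.05, the lowest adjusted p was 0.819, and 659 (5.94%) had an unadjusted p under 0.05. For 94.4% of probes the 95% interval of the interaction lay within 2-fold in either direction. When single animals were left out the count was 0 or 1, the 1 being a probe with no gene name, scl52114.2_187-S, in the fit without wildtype replicate 1 (2.59, SE 0.31, adjusted p = 0.00704 in limma).

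The named gene of smallest interaction p was Eif4ebp3, a repressor of translation initiation. In transgenic livers it was at 1660.8 and 1575.9 in the low class and at 365.7 to 745.6 in the 5 animals of the high class. In wildtype livers it was at 385.7 to 803.0 in the 4 low animals and at 571.2, 705.7 and 1399.8 in the 3 high animals. The interaction was -2.27 (95% interval -3.22 to -1.32), with a limma adjusted p of 0.819. Next came Tmem51 (0.84), Klhdc7a (0.91), Tuba3b (0.78), D16Ertd472e (-0.67) and Dct (-1.10), each with the same adjusted p. None of these passed the threshold.

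Set side by side, the genotypes showed like differences in animals that they do not share. Within transgenic livers (5 high, 2 low) 2671 probes (24.1%) were called and within wildtype livers (3 high, 4 low) 2087 (18.8%). Of these, 1487 were called in both with the same sign, which is 55.7% of the transgenic and 71.3% of the wildtype calls, and 1 was called with opposite signs. Pearson's r of the differences over the 11101 probes was 0.89, where probes share arrays and are not independent. Of all probes 78.7% had the same sign in both. Lyz2 differed by 3.10 within transgenic and 3.18 within wildtype livers, Mup2 by -4.48 and -3.76, Fdps by -2.45 and -2.15, and Lpl by 3.79 and 3.63. Mup2 stood at 84.2 to 348.4 in the 5 transgenic high livers against 4225.6 and 3790.3 in the low, and at 361.7, 186.1 and 445.2 in the wildtype high livers against 3890.5, 5064.3, 5583.3 and 3955.0 in the low. The classes were apart within each genotype for this gene.

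**Figure D3:**
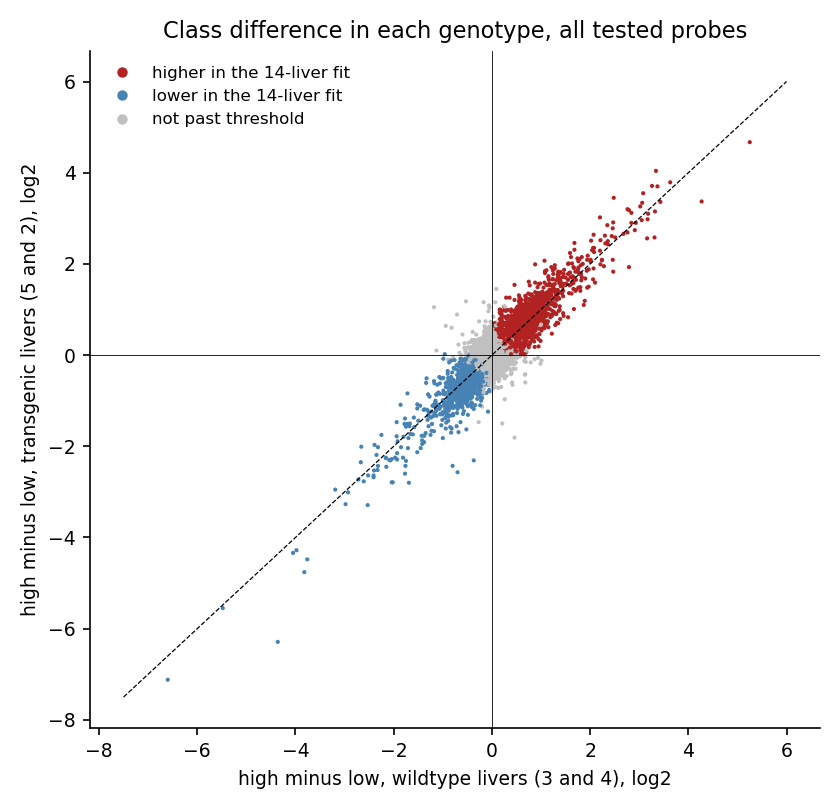
Class difference (log2) within transgenic livers on the vertical axis against that within wildtype livers on the horizontal axis, for 11101 probes. Colours give the call in the fit of 14 livers, and the dashed line marks equal differences. The points lie along the line, with r of 0.89.

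The 2 wildtype animals between the classes did not lie at the same place for every group. Over 433 probes (3.9%) that were called at 2-fold or more and did not overlap, wildtype replicate 3 lay at a median of 52.2% of the way from the low to the high mean and wildtype replicate 7 at 68.7%. For replicate 3 the probes higher in the high class lay at 43.6% and the lower probes at 70.9%, and for replicate 7 at 67.7% and 70.9%. Fdps was at 456.2 and 417.8 in these animals, below the lowest Gpnmb-high liver, and Susd4 was at -28.2 and -21.6, within the range of the high class. Lyz2 was at 749.4 and 1699.0, Mmp12 at 129.0 and 155.9 and Cd63 at 605.9 and 1014.5, between the classes for all 3 genes. By list, members of cholesterol synthesis lay at medians of 92% and 93%, those of the macrophage list at 36% and 70%, and those of the matrix list at 21% and 71%, for replicates 3 and 7. With 2 animals there is no test of these positions.

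**Figure D4:**
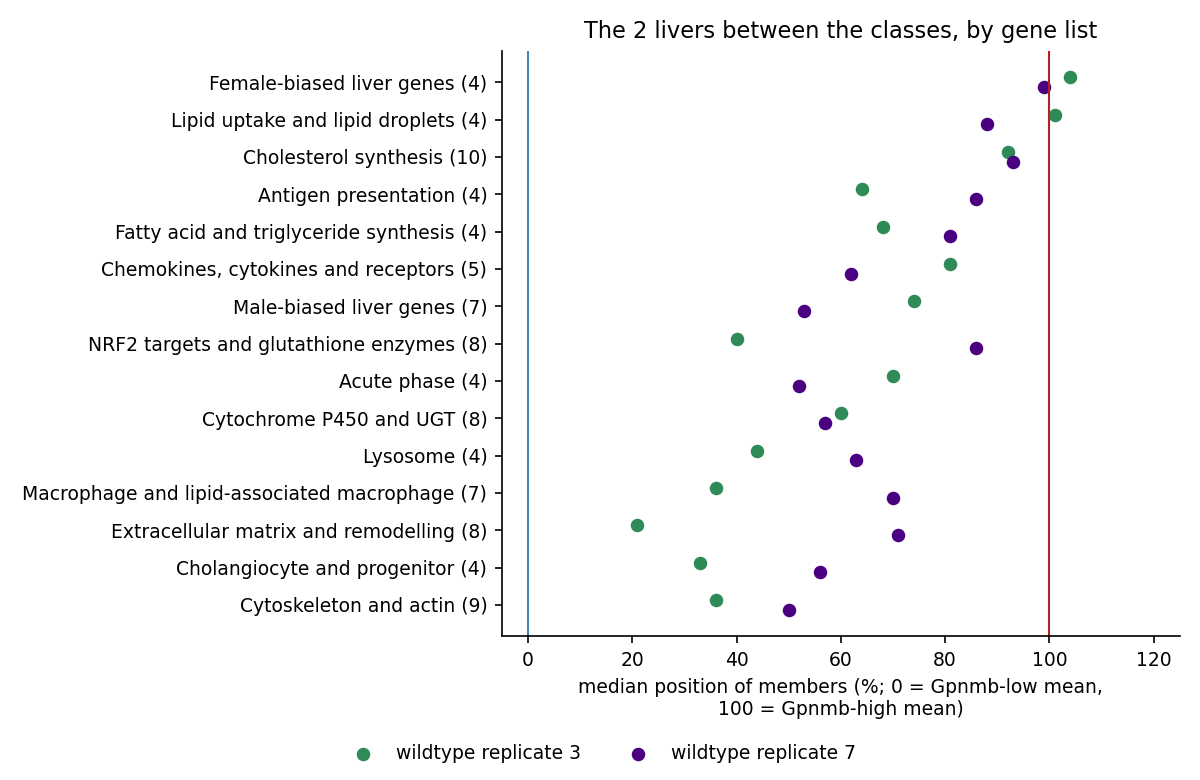
Median position of the called members of each list (difference of at least 0.5 on the log2 scale, number in brackets) in the 2 livers between the classes, as a percentage of the way from the Gpnmb-low mean at 0 to the Gpnmb-high mean at 100. Cholesterol synthesis, lipid uptake and female-biased genes lie at 88% to 104%, and the macrophage, matrix and cytoskeleton lists are lower in wildtype replicate 3 than in replicate 7.

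Among the 8 high livers the level of Gpnmb above the threshold had not been used, and 6 genes were set against it. No relation passed after Benjamini-Hochberg adjustment over the 6, by exact permutation tests that were two-sided. Mmp12 had a Pearson's r of -0.64 (p = 0.0938, adjusted p = 0.342, exact permutation) and a Spearman's rho of -0.48 (p = 0.243, exact permutation). Lyz2 had r = 0.61 (p = 0.114, adjusted p = 0.342, exact permutation) and rho = 0.59 (p = 0.135, exact permutation). For Cd63, Mup2, Susd4 and Fdps r was 0.33, -0.03, 0.03 and 0.10, and rho 0.26, 0.14, 0.24 and 0.31, with exact permutation p of 0.433, 0.932, 0.938 and 0.816 for r and 0.536, 0.752, 0.582 and 0.462 for rho. Without the 2 livers farthest from the median Gpnmb level, r was -0.50 for Mmp12, 0.34 for Lyz2, -0.30 for Cd63, 0.63 for Mup2, 0.77 for Susd4 and -0.26 for Fdps, so that several signs rested on those livers. Susd4 was above background on none of these arrays, where all its intensities were negative (-31.2 to -14.8). Its correlations therefore rest on values below background.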

How the data were processed

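RNA from 16 livers was hybridised to Illumina Mouse Ref-8 arrays. The authors deposited linear intensities, which per the submitters' processing notes came from BeadStudio 1.5.1.3. From the values, these intensities are background-subtracted and scaled to a common array mean, by a method that these sources do not state. A further deposited table, with 128 sample columns named by chip position, was not used, and so the chip of each sample was not a block. Intensities were corrected with normexp (offset 16), put on log2 and quantile normalised. A probe counted as above background at 1.645 noise SDs, and at least 6 of 14 arrays were required. The fit was limma 3.58.1 in R 4.3.3 on class and genotype, tested on simulated data, with Benjamini-Hochberg adjustment over all tested probes but those of Gpnmb. Probes were named by the gene number in their identifier (93.3% of 9523 matched RefSeq). Genes were named as follows: the markers of the classes, the 15 largest separated differences each way, up to 4 called members of each of 39 gene lists, and 6 for the interaction. Other genes were chosen after their values were seen. The classes, members and lists were chosen with earlier results of these data known. Arrays give no counts, and the number of animals limits the precision. Title numbers shared between animals were tried as a block.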

Additional observations from a re-analysis of the deposited data

Results flagged for a closer look

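Among 211 sets of values (a named gene in the 8 high or the 6 low livers), 9 had a highest or lowest animal far from the rest of its class, where chance alone gives about 1 in 20, or 10.6. All are normalised log2 levels. In the Gpnmb-low livers, Krt8 was at 11.28 in wildtype replicate 2 against 10.73 to 10.92 in the others, and Cyp4f14, in the same animal, at 12.39 against 12.65 to 12.72. Also in the low class, Apoa4 was at 7.84 in wildtype replicate 1 (others 8.53 to 8.85), Ppargc1b at 8.83 in wildtype replicate 9 (others 8.49 to 8.61) and Sdhb at 11.90 in transgenic replicate 1 (others 11.61 to 11.68). In the Gpnmb-high livers, F5 was at 10.48 in wildtype replicate 5 (others 9.73 to 10.04) and Klhdc7a, in the same animal, at 6.59 (others 7.15 to 7.58). Apoc3 was at 14.05 in wildtype replicate 6 (others 14.25 to 14.37) and Ndufb7 at 7.26 in transgenic replicate 3 (others 7.56 to 7.80).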

How the results depend on the processing

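The calls over 11101 probes, 2131 higher and 2182 lower, became 1844 to 2125 higher and 1691 to 2186 lower when each of the 14 animals was left out in turn. With fewer animals, within transgenic livers 1214 probes were lower, and within wildtype livers 1180 were higher and 907 lower. The interaction gave 0 to 1 calls when single animals were left out and 0 under the other alternatives. Some animals share a number in their titles, and with that number as a random replicate block the counts were 2136 and 2187 (correlation -0.011) and the interaction had 0 calls. A fixed replicate block could not be fitted, since within the shared numbers class and genotype cannot be told apart. Among the 14 livers, animals with the same number and genotype were always of the same class. The random block therefore cannot show whether the number matters. Over the named genes and 29 alternatives, 3547 values kept direction and call, 138 lost the call, 5 gained it and 3 turned. The genes that turned were Eif4ebp3 (0.46 within wildtype livers), Klhdc7a (0.23 within transgenic livers) and Tuba3b (-0.15 within wildtype livers). All 3 were among the 6 genes named for the smallest interaction p, a choice that favours such turns. Most other named genes were chosen because they were called, which favours values that keep their call. Without the 2 farthest livers the correlation with Gpnmb turned for Cd63 (-0.30), Mup2 (0.63) and Fdps (-0.26). The causes were not tested. Ribosomal calls fell from 29 to 13 without quantile normalisation, and lower calls of fatty acid oxidation rose from 3 to 6. With fewer animals, counts within wildtype livers fell from 10 to 5 higher for the glutathione list, from 6 to 2 lower for complement and coagulation and from 4 to 0 lower for apolipoproteins. Within transgenic livers they fell from 6 to 2 higher for acute phase genes and from 4 to 1 lower for apolipoproteins. For P450 genes they fell from 5 and 6 to 3 and 3 there, and for secreted proteins from 3 to 1 lower within each genotype. The medians with members at their bounds and the sums over tested markers were chosen after seeing the data. Dim probes near background, such as Ccl2 or S100a4, carry only bounds.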

Other observations

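Protein synthesis and respiration genes differed little in size. Over all 3883 named genes 20.5% were called higher and 18.2% lower, which is the background for the counts in this section. The lower calls of respiration, and the higher calls of glycolysis, the proteasome and the interferon list, lay near those shares. Of 53 tested ribosomal protein genes 29 were called higher and none lower, with a median of 0.21, and Rpl7, Rps10 and Rpl35 each differed by 0.37. That count was 13 without quantile normalisation, 16 without the filter on dim probes, and 7 and 6 within transgenic and wildtype livers. Of 28 respiratory genes 6 were called lower, with Sdhb and Ndufb7 at -0.41 and a median of -0.10. Proteasome genes gave 2 higher and 1 lower of 12, and 1 higher without transgenic replicate 1 or 2 or wildtype replicate 4, where Psmd8 lost its call. Glycolysis gave 2 higher of 10 with Pkm at 1.25, and 4 without quantile normalisation or without the genotype covariate. The endoplasmic reticulum stress list gave 1 lower of 4 (Dnajb9, -0.31). Of 10 cell cycle genes Tk1 was called, at -1.18 (SE 0.18), and 2 were called lower without transgenic replicate 1 or wildtype replicate 2 or 4, with array weights, or without quantile normalisation. Tk1 had 78.4 to 230.9 in the high against 215.8 to 506.1 in the low class, while Mki67 was at -0.07 and Pcna at -0.03.

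Of 11 tested antigen presentation genes 6 were called higher, led by Cd74 at 0.95 (SE 0.17) with overlapping classes, and 0 were called within wildtype livers alone (4 low and 3 high). Of 9 interferon genes 2 were called higher (Oas1a, Irf7), and 4 without wildtype replicate 5 or 9 or without quantile normalisation. Within wildtype livers 1 was called, and with probes detected on all 14 arrays 0 of 5. Oas1a was above background on no low array and was at least 1.18-fold higher. Of 8 tested genes of fatty acid oxidation 3 were called lower, or 5 without transgenic replicate 5, with Pex11a at -0.63 (a call lost without transgenic replicate 2) and Hadhb at -0.25. Of 8 hepatocyte transcription factors 3 were called lower (Cebpa, Ppargc1b, Onecut1), the last not without transgenic replicate 1, and of 6 genes of gluconeogenesis and amino acid breakdown 2 (Pck1, Tdo2), or 0 without transgenic replicate 1. Bile acid genes gave 1 of 2 lower. On the lists for blood and neighbouring tissue, 1 of 3 red cell genes was called lower. This was Hba-a1, a call lost without transgenic replicate 2 or 6 or wildtype replicate 1, 4, 6 or 8. Of 3 pancreas and gut genes Cel was called (-0.37), and 0 within wildtype livers. Cel was dim, at a log2 level of 6.09 against 6.47, and above background on 3 high and 5 low arrays. Of 2 adipocyte genes Car3 was called (-0.54). A second Car3 probe differed by -1.17. Car3 was bright, at a log2 level of 13.62 in the high and 14.18 in the low class. Fabp4, the other adipocyte gene, was dim at 6.25 and 6.45, so Car3 is not read as adipose tissue.

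The largest differences of the tested probes, Gpnmb left out, were in probes without a gene name here, chosen after their values were seen. Probe scl35191.1.7_235-S was at 22.9 to 77.8 in the high and 7069.2 to 13567.0 in the low class, a difference of -6.84 (SE 0.15). Probe scl19446.4_4-S was at 2716.9 to 8553.5 against 66.2 to 309.7, a difference of 4.99 (SE 0.26).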
